A study of Mus musculus with 20 samples.

Results

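The 89 genes described here encode the nuclear-encoded subunits of the mitochondrial respiratory chain and of ATP synthase, with 8 assembly factors of complex I, in mouse gastrocnemius, a calf muscle of mixed fibre types. They were the rows of the count table whose symbols begin with Nduf, Uqcr, Atp5 or a cytochrome c oxidase stem from Cox4 to Cox8, or are Sdha to Sdhd, with at least 10 counts in at least 5 samples. Of 53311 rows, 100 had such a symbol. Of these, 8 were pseudogenes and were left out. A further 3 lay below the count minimum, namely Cox6b2 with at most 4 counts in a sample, and Cox7b2 and Cox8c with 0 counts throughout. The member nearest the minimum was Cox4i2, with 5 to 15 counts per sample and 10 or more in 9 samples, and the next was Ndufb2 with 13 to 40. All 89 passed the low-count filter of the statistical fit. They fell into 36 subunits of complex I (7 core and 29 accessory), 8 complex I assembly factors (the Ndufaf genes), 4 subunits of complex II, 8 of complex III, 17 of complex IV (with Ndufa4 and its relative Ndufa4l2) and 15 of complex V. Atp5s, a coupling factor, was counted apart.

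RNA was sequenced from 20 muscles in 4 groups of 5. All mice had the same labelled genotype, Cre+:iMSBmal1 fl/fl, so that Cre and floxed alleles of the clock gene Bmal1 (Arntl) were present in the controls too. Mice had received either vehicle or the treatment labelled iMSBmal1KO, a loss of Bmal1 in skeletal muscle, and were either left at rest or run on a treadmill for 30 min. The labels give zeitgeber time 13 (counted in hours from lights on) for all 20 samples, with the exercised muscles marked as 1 h past the run. For the exercised knockout-labelled samples 1 label speaks of training and another of acute exercise, and they are treated here as acute. The inducing agent, the promoter that drives Cre, the age of the mice and any pooling are not given in the sources used here, and no label says that samples came from separate animals, so p-values measure the spread between these samples. Whether vehicle and knockout-labelled muscles, or rested and run muscles, differed in the respiratory chain are the questions that the design addresses.

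The respiratory chain passes electrons from NADH (complex I) and succinate (complex II) through coenzyme Q, complex III and cytochrome c to oxygen at complex IV. Complexes I, III and IV pump protons across the inner mitochondrial membrane, and complex V, the ATP synthase, makes ATP from the returning protons. Slow and fast oxidative muscle fibres are rich in mitochondria, while fast glycolytic fibres hold fewer, and Myh7, the slow myosin heavy chain, marks slow fibres. BMAL1 binds E-box sequences, whereas NRF1 and the oestrogen-related receptors (ERR) are textbook regulators of respiratory chain genes.

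Libraries held 8045154 to 11269812 counts (median 9024900), of which the members took 1.46% to 2.80%. Levels are CPM, a gene's counts per 1000000 counts after trimmed-mean (TMM) scaling. Arntl itself was not lower in the knockout-labelled samples, at 12.1 to 16.4 CPM at rest and 11.5 to 21.2 CPM after exercise against 9.74 to 14.9 and 7.90 to 21.4 CPM in vehicle. Whether the deleted part of the gene is counted is not given in the sources used here, so this level does not check the labels, and the samples are called knockout-labelled throughout. Myh7 ranged from 0 to 10753 counts, and 5 libraries held under 100 (vehicle replicate 5 at rest with 68, vehicle replicates 2 and 4 after exercise with 0 and 82, knockout-labelled replicates 2 and 4 after exercise with 10 and 14). All 10 slow-fibre markers were detected, and their summed level ran from 105 to 2821 CPM in vehicle at rest, 51.1 to 2785 CPM in vehicle after exercise, 298 to 4217 CPM in knockout-labelled muscle at rest and 78.6 to 2829.7 CPM after exercise. The largest of 4 group differences in mean log2 CPM of Myh7 was -3.81 (knockout-labelled, exercise minus rest), which missed the threshold in an exact two-sided permutation test (p = 0.0952, adjusted over 4 comparisons 0.381, smallest possible 0.00794). Its other 3 group differences had exact p-values of 0.421 to 0.889. Ucp1, which defines brown fat, a tissue rich in respiratory chain transcripts, had 0 counts in every library.

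Per kilobase of the principal transcript, levels averaged over all 20 samples were highest for Atp5b, the beta subunit in the catalytic head of complex V. Atp5b stood at 1317 CPM per kb, followed by Cox6a2 of complex IV at 934 and the alpha subunit Atp5a1 at 892. The highest in complexes II to IV and among the assembly factors were Cox6a2 at 934 CPM per kb in complex IV, Uqcr10 at 424 in complex III, Sdha at 291 in complex II and Ndufaf1 at 23.2 among the assembly factors. Muscle isoforms outweighed their ubiquitous partners in complex IV. Cox6a2 stood at 934 CPM per kb against 28.9 for Cox6a1, Cox8b at 639 against 37.0 for Cox8a, and Cox7a1 at 361 against 146 for Cox7a2. The ubiquitous Cox4i1, at 648 CPM per kb, exceeded Cox4i2, known from lung, at 1.43, and Ndufa4 at 595 exceeded Ndufa4l2, known as a hypoxia target, at 3.36. The 8 pseudogene rows were low apart from Ndufab1-ps, with a mean of 16.2 CPM, so reads of Ndufab1 may have been split with it. In GENCODE M21, 32 members share exon sequence with another gene, 27 of them only on the opposite strand, and strandedness is not given in the sources used here.

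Respiratory chain transcripts tended to be higher in libraries with more Myh7. Within groups, 50 of the 89 members rose with log2 CPM of Myh7 and 0 fell (edgeR quasi-likelihood slope test, Benjamini-Hochberg adjusted p under 0.05 over all genes). Of all 13559 genes tested, 21.1% were called, with 11.8% rising and 9.36% falling. The median slope of the members was 0.040 log2 units per doubling of Myh7, against -0.00091 for all genes, and 86 of 89 slopes were above 0 (49% of all genes). By complex, 4 of 4 members rose in complex II, 10 of 15 in V, 11 of 17 in IV, 5 of 8 in III, 19 of 36 in I and 1 of 8 among the assembly factors. Whether these shares differ between complexes was not tested. Markers of fibre types moved along the same axis. The 9 other slow-fibre markers all rose (median slope 0.78), Myh2, the myosin of fast oxidative IIa fibres, rose (0.57), and of 9 markers of IIx and IIb fibres 8 fell and 1 rose (median -0.048). Their part in the slopes of the members was not tested.

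**Figure D1:**
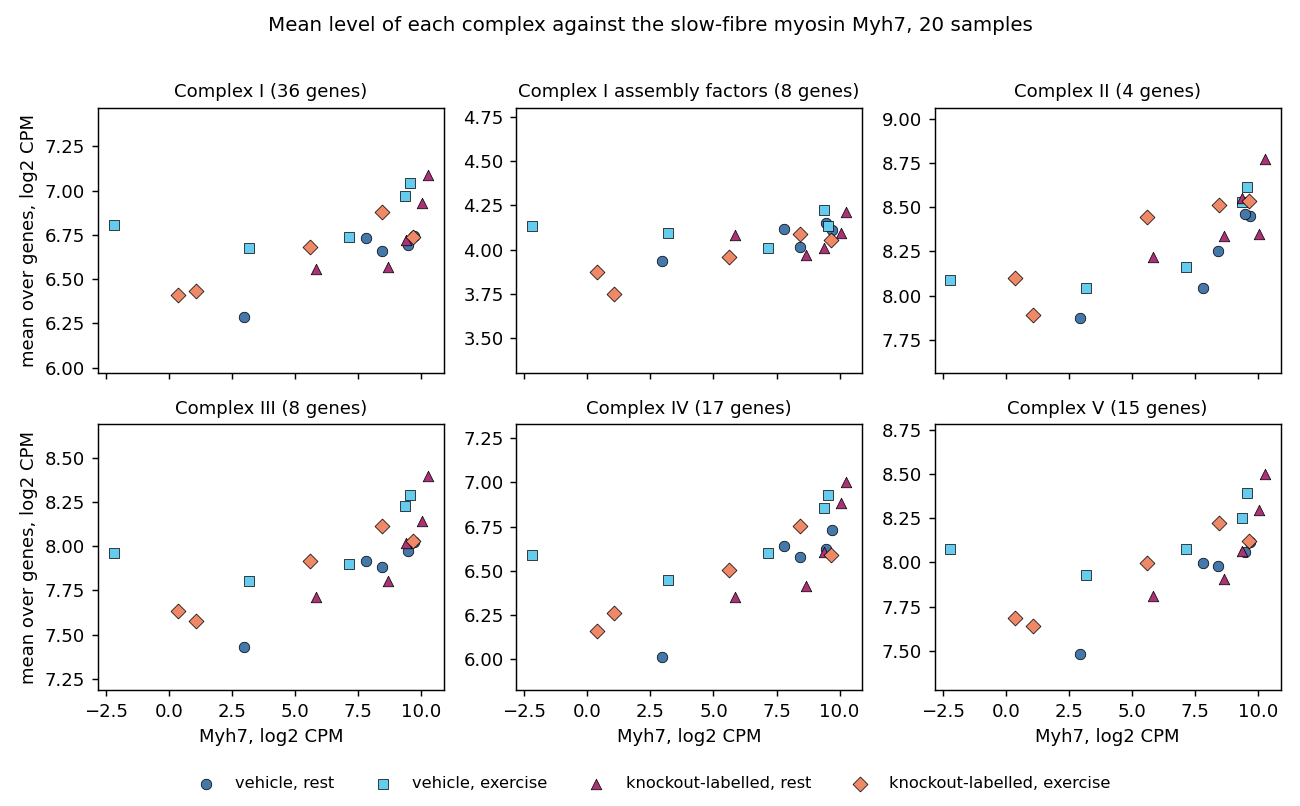
Mean log2 CPM over the genes of each complex (vertical) against log2 CPM of Myh7 (horizontal), 1 point per sample, coloured by group. The point at the far left is vehicle replicate 2 after exercise, with 0 Myh7 counts, whose position is set by the prior count of 2; complex II means run from 7.87 to 8.77 and those of the assembly factors from 3.75 to 4.23.

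The mean log2 CPM over all members correlated with log2 CPM of Myh7 at a Pearson r of 0.643 (Spearman rho 0.728) over 20 samples, and at 0.794 without the 2 samples farthest from the median of Myh7. It was 0.455 in the 10 vehicle samples and 0.843 in the 10 knockout-labelled samples. Vehicle replicate 2 after exercise, with 0 Myh7 counts, had a member mean of 6.87 log2 CPM. That lay above replicates 4 and 5 of its group (6.74 and 6.83) and below replicates 1 and 3 (7.06 and 7.13). Points share their library and scaling, so these are descriptions. Among the 15 samples with 100 or more Myh7 counts r was 0.657. Fitted without the 5 libraries below that, the median slope was 0.082, and 2 members were called of 59 genes in all. Fitted in vehicle samples only, 17 members rose (median slope 0.033), of 913 genes called in all. In knockout-labelled samples only, the median slope was 0.056. In bulk muscle, fewer slow or oxidative fibres and less RNA per fibre cannot be told apart.

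Complex II, which also serves the citrate cycle, was called in every member. Sdhb, its iron-sulphur subunit, had 378, 379.7, 301, 229 and 184 CPM in vehicle at rest, 370.2, 214, 409, 213 and 249 in vehicle after exercise, 319.6, 484, 310.4, 266 and 373 in knockout-labelled muscle at rest and 351, 231, 381, 199 and 372 after exercise (replicates 1 to 5). The lowest value of each exercised group and of vehicle at rest came from a library with under 100 Myh7 counts, while the 4 groups overlapped. Its slope was 0.096 ± 0.015 (SE, adjusted p = 8.16e-05), or 0.96 log2 units over 10 doublings. Sdha, the flavoprotein that oxidises succinate, was flatter, at 0.030 ± 0.0089 (SE, adjusted p = 0.018).

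The catalytic subunits of the other complexes rose as well. The Rieske protein Uqcrfs1 and the core protein Uqcrc1 of complex III had slopes of 0.058 ± 0.012 (SE, adjusted p = 0.000909) and 0.058 ± 0.0091 (SE, adjusted p = 7.24e-05). In complex I, 13 of 29 accessory subunits rose. Ndufv1, which binds NADH, had a slope of 0.058 ± 0.010 (SE, adjusted p = 0.000216), and the iron-sulphur subunit Ndufs1 one of 0.044 ± 0.011 (SE, adjusted p = 0.00367). In complex V all 5 subunits of the F1 head rose, among them Atp5a1 at 0.046 ± 0.0085 (SE, adjusted p = 0.000361) and Atp5b at 0.051 ± 0.0088 (SE, adjusted p = 0.000187).

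**Figure D2:**
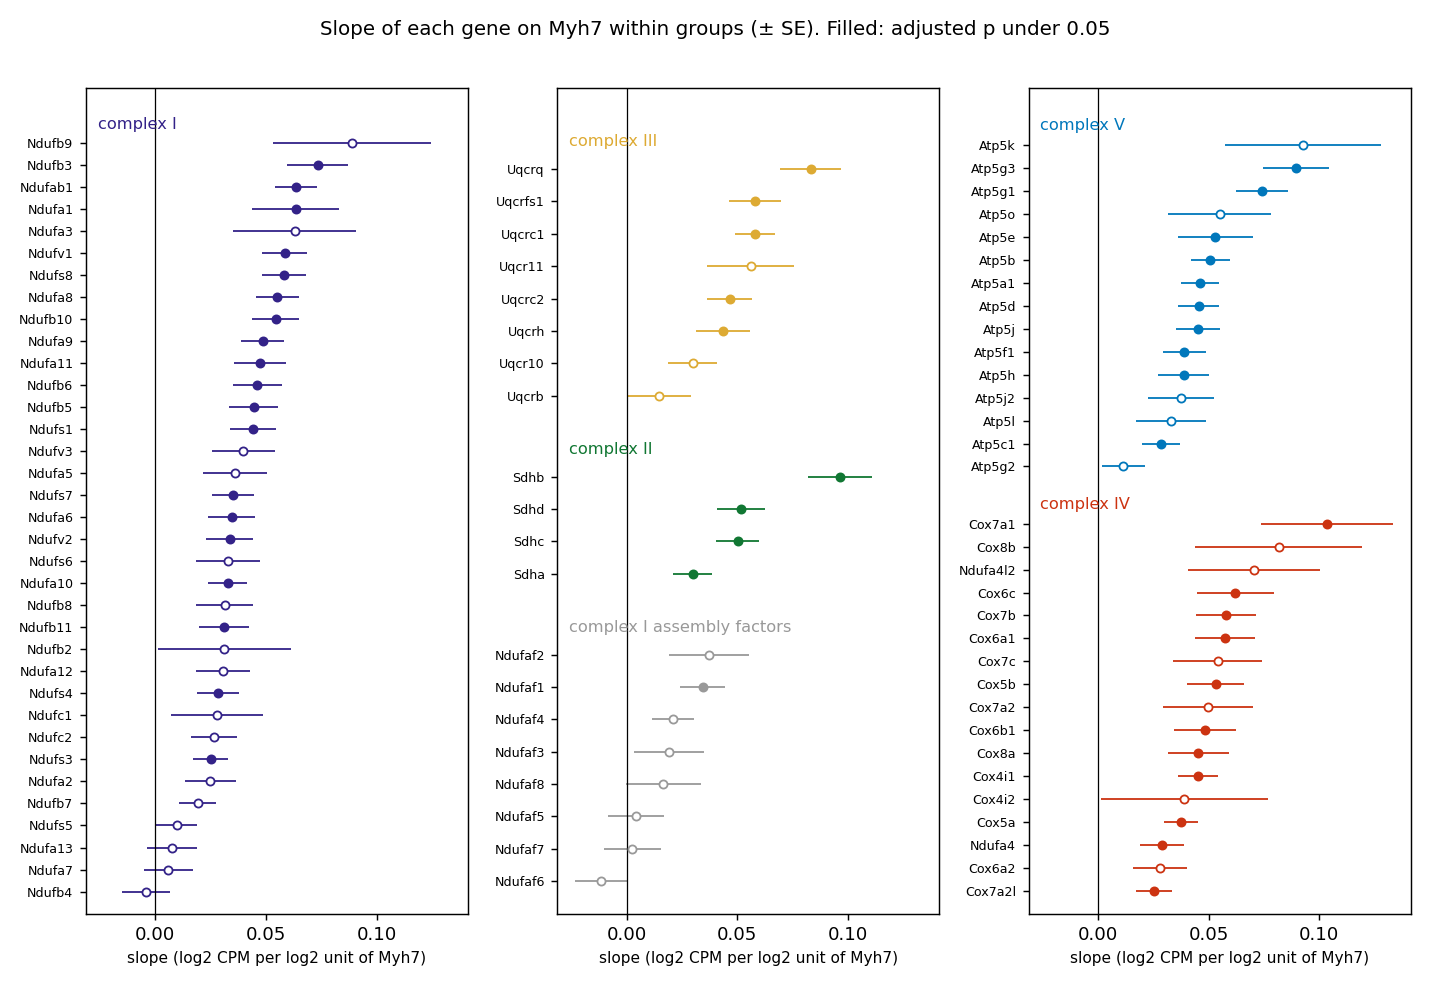
Slope of each gene on log2 CPM of Myh7 within groups (horizontal, log2 CPM per log2 unit) with its SE, by complex; filled points have an adjusted p under 0.05. Sdhb at 0.096 and Cox7a1 at 0.10 lie farthest to the right among filled points, while Ndufb4, Ndufaf6, Ndufaf7 and Ndufaf5 lie near 0; Atp5s and 1 gene of complex I are not drawn.

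The steepest slope of all members was that of Cox7a1, the heart and muscle isoform of a complex IV subunit, at 0.10 ± 0.030 (SE, adjusted p = 0.0219). It had 169, 148, 149, 147 and 58.9 CPM in vehicle at rest, 214, 174, 242, 135 and 153 in vehicle after exercise, 193, 237, 84.6, 84.6 and 104 in knockout-labelled muscle at rest and 102, 64.99, 178, 68.4 and 127 after exercise. Vehicle replicate 5 at rest stood far below its group, and the knockout-labelled samples at rest fell into 3 low and 2 high values. Its relatives Cox7a2 and Cox7a2l, the latter a supercomplex factor, had slopes of 0.050 ± 0.020 (SE, adjusted p = 0.0944) and 0.025 ± 0.0083 (SE, adjusted p = 0.03). In the other isoform pairs the ubiquitous forms Cox6a1 (0.057 ± 0.014 SE, adjusted p = 0.0036) and Cox8a (0.045 ± 0.014 SE, adjusted p = 0.0199) rose. The muscle forms Cox6a2 (0.028 ± 0.012 SE, adjusted p = 0.103) and Cox8b (0.082 ± 0.038 SE, adjusted p = 0.14) missed the threshold. Cox8b ran from 70.99 to 408 CPM over the 20 samples. Whether slopes differ within a pair was not tested. Cox4i1 (0.045 ± 0.0090 SE, adjusted p = 0.000798), Cox5a (0.038 ± 0.0078 SE, adjusted p = 0.00108), Cox6b1 (0.048 ± 0.014 SE, adjusted p = 0.0174) and Ndufa4 (0.029 ± 0.0099 SE, adjusted p = 0.0377) rose, and the low Cox4i2 and Ndufa4l2 missed the threshold (adjusted p = 0.506 and 0.0941). In 20 fits with a sample left out, the call was lost in 11 for Ndufa4, 5 for Cox7a2l, 2 for Cox8a and 1 for Cox7a1. It was lost in 0 for Cox6a1, Cox4i1, Cox5a and Cox6b1.

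Among the 5 steepest slopes, Atp5k, a small membrane subunit of complex V known from dimers of the enzyme, and Ndufb9, an accessory subunit of complex I, did not pass. Atp5k had a slope of 0.093 ± 0.035 (SE, adjusted p = 0.0758) and Ndufb9 one of 0.089 ± 0.036 (SE, adjusted p = 0.0911). Atp5k ran from 20.1 to 57.1 CPM in vehicle at rest and up to 84.7 CPM in resting knockout-labelled muscle. Its highest values were in vehicle after exercise, at 49.9 to 95.7 CPM, with 79.5 CPM in the library with 0 Myh7 counts, and it ran from 15.3 to 49.3 CPM in knockout-labelled muscle after exercise.

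The c-ring, the rotor of complex V, is made of 1 protein that 3 genes encode. Atp5g1 and Atp5g3 rose with Myh7, and Atp5g2 missed the threshold. Atp5g1 had 314, 341, 301, 279 and 228 CPM in vehicle at rest, 404, 254, 385, 278 and 289.8 in vehicle after exercise, 362, 496, 291, 276 and 349 in knockout-labelled muscle at rest and 332, 233, 398, 201 and 348 after exercise. Atp5g3 had 342, 330.3, 293, 264 and 210.3 CPM, 393, 262, 430.1, 258 and 294 CPM, 401, 482, 309, 297 and 400.1 CPM and 343, 227, 396, 139 and 393 CPM in the same order of groups. Atp5g2 had 133, 125, 130.5, 151 and 109.6 CPM, 139.5, 159, 145, 141 and 138 CPM, 150.2, 150.3, 127, 123 and 118 CPM and 121, 116, 133, 101 and 126 CPM. For Atp5g1 and Atp5g3 the libraries with under 100 Myh7 counts gave the 1 or 2 lowest values of their groups, and for Atp5g2 the highest value of vehicle after exercise came from the library with 0 Myh7 counts. The slopes were 0.074 ± 0.012 (SE, adjusted p = 7.28e-05) for Atp5g1, 0.090 ± 0.015 (SE, adjusted p = 0.000242) for Atp5g3 and 0.012 ± 0.0096 (SE, adjusted p = 0.433) for Atp5g2. The genes encode near-identical mature proteins, so reads may have been split between them. The difference between their slopes was not tested.

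The promoters of these 3 genes are shown because each holds a different one of the motifs searched. The runs end 1 base before the gene start and lie on the minus strand of GRCm38.p6 (RefSeq), at chr11:96075632-96075751 for Atp5g1, chr15:102671048-102671167 for Atp5g2 and chr2:73911327-73911446 for Atp5g3. Capitals mark the E-box CACGTG in Atp5g1, the NRF1 motif in Atp5g2 and the ERR element TCAAGGTCA, read on the other strand, in Atp5g3.
Atp5g1: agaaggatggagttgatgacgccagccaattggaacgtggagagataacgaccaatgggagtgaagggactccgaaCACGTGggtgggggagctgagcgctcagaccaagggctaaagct
Atp5g2: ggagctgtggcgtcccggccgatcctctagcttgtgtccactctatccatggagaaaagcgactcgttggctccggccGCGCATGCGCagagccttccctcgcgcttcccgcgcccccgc
Atp5g3: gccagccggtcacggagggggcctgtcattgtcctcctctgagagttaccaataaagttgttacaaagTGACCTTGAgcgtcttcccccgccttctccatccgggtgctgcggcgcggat
The capitals start at -44, -42 and -52 relative to the gene start, and the window of Atp5g3 also holds an E-box farther upstream. Both strands were searched for each motif in windows of 300 bases, 250 before and 50 after the start. Of the members, 74 matched the RefSeq table, with 79 windows. The NRF1 motif was in 7 member windows (8.86%) and in 0.971% of all 32851 windows. The ERR element was in 2 (2.53% against 0.423%), and the YY1 motif AAGATGGC in 11 (13.9% against 2.75%). The E-box was in 7 windows of 6 genes (8.86% against 7.15%). The ETS motif CCGGAAGT was in 5 windows (6.33% against 3.89%) and the CRE TGACGTCA in 4 (5.06% against 1.79%). A match is a description of letters and no measurement of binding.

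**Figure D3:**
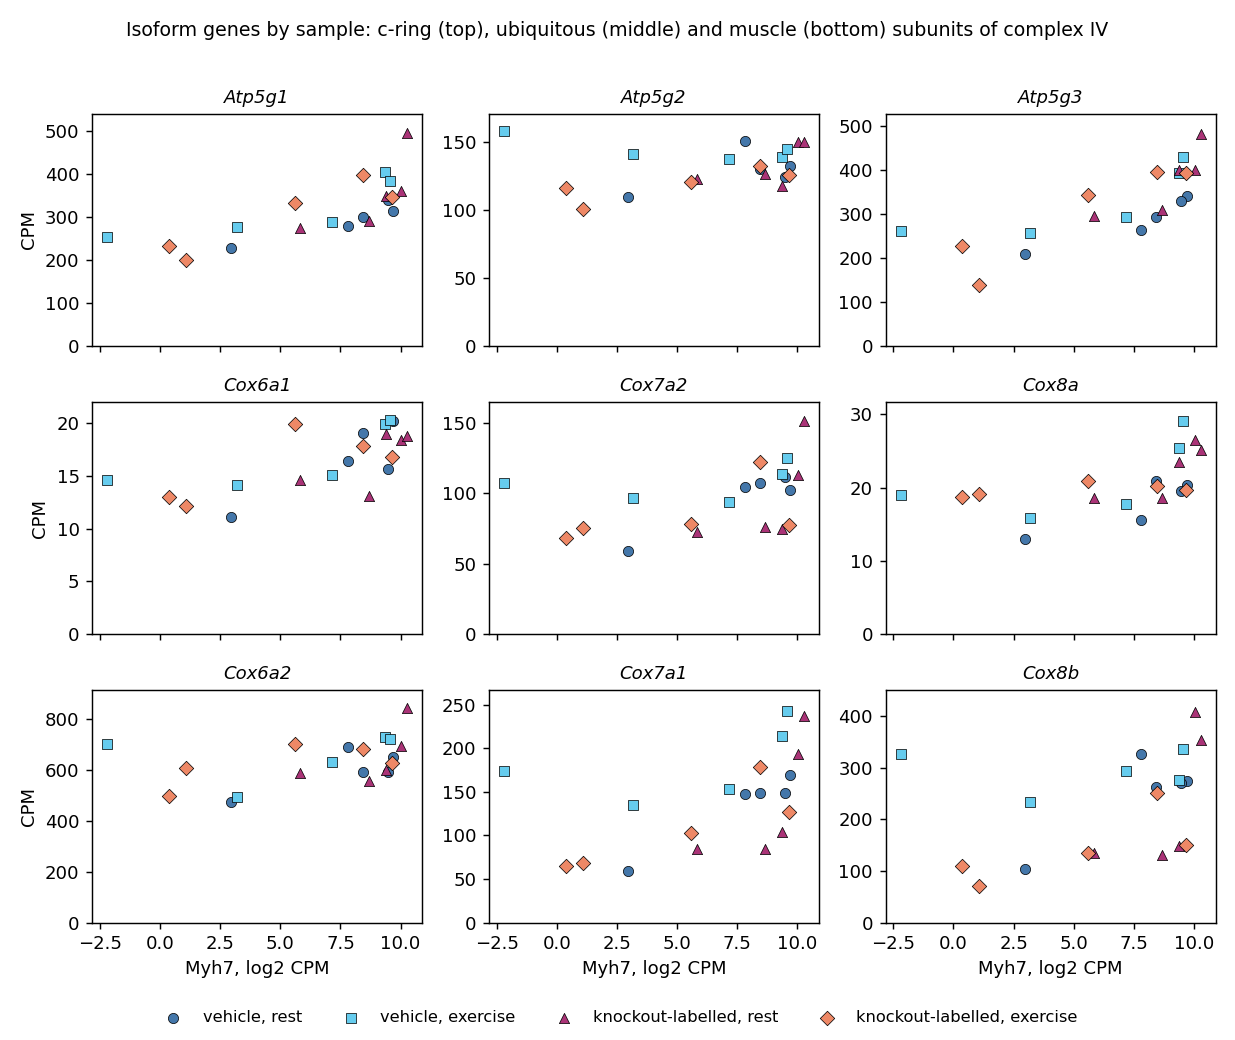
CPM of 9 isoform genes (vertical, from 0) against log2 CPM of Myh7 (horizontal), 1 point per sample, by group. Atp5g1 and Atp5g3 run from 201 to 496 and from 139 to 482 CPM, Atp5g2 from 101 to 159; Cox8b runs from 71.0 to 408 and Cox7a1 from 58.9 to 242 CPM, with vehicle replicate 5 at rest lowest for Cox7a1.

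Of the 8 assembly factors, Ndufaf1, a factor of the early membrane arm, rose (0.034 ± 0.010 SE, adjusted p = 0.0172). Ndufaf6 (-0.012 ± 0.012 SE, adjusted p = 0.535), Ndufaf7, a methyltransferase (0.0027 ± 0.013 SE, adjusted p = 0.912), and Ndufaf5 (0.0043 ± 0.013 SE, adjusted p = 0.853) missed the threshold. So did Ndufb4, an accessory subunit of the membrane arm (-0.0042 ± 0.011 SE, adjusted p = 0.83), and Atp5s (-0.0076 ± 0.012 SE, adjusted p = 0.711).

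At rest, knockout-labelled muscle had 3 members higher and 1 lower than vehicle, a share of 4 in 89 beside 3.86% of all 13560 genes (1.8% higher and 2.06% lower). The members as a whole lay slightly above vehicle, with a median log2 fold change of 0.16 and 80 of 89 above 0, against a median of 0.0087 and 51.7% above 0 over all genes. The medians were 0.17 in complex I, 0.22 in II, 0.20 in III, 0.13 in IV, 0.24 in V and 0.06 in the assembly factors. With log2 Myh7 as a covariate the median was 0.13, and without vehicle replicate 5, the library with 68 Myh7 counts, it was 0.10.

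Cox5a, a complex IV subunit, had 327, 335, 300.2, 328 and 264 CPM in vehicle and 427, 449.6, 379, 369.5 and 424 CPM in knockout-labelled samples at rest. The groups did not overlap, and the log2 fold change was 0.40 ± 0.11 (SE, adjusted p = 0.0314). Cox5a overlaps a gene on the opposite strand, Gm26631, by 269 bases of exon, and Gm26631 stood at 223 CPM, so without known strandedness their reads cannot be told apart. Ndufb7, an accessory subunit of complex I, had 98.02, 97.7, 91.2, 96.1 and 78.2 CPM against 120.0, 131, 105, 107 and 115 CPM, again without overlap (0.33 ± 0.087 SE, adjusted p = 0.0324). Ndufb8, another, had 52.6, 47.1, 50.4, 59.8 and 54.1 CPM against 78.1, 68.95, 71.1, 70.3 and 86.3 CPM, without overlap (0.51 ± 0.14 SE, adjusted p = 0.0392). In all, 5 of 89 members did not overlap between the groups, beside 5.8% of all genes.

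Ndufaf5, which hydroxylates an arginine of the core subunit Ndufs7 during assembly, was lower in knockout-labelled muscle in both states. It had 21.3, 22.8, 20.97, 25.7 and 20.2 CPM in vehicle and 16.3, 18.8, 13.7, 18.7 and 15.4 CPM in knockout-labelled samples at rest. After exercise it had 25.95, 26.97, 20.8, 24.7 and 20.6 CPM and 15.9, 13.2, 16.1, 10.9 and 15.7 CPM. In neither state did the groups overlap. The log2 fold change was -0.42 ± 0.12 (SE, adjusted p = 0.0487) at rest and -0.73 ± 0.12 (SE, adjusted p = 0.000403) after exercise, and the difference between both missed the threshold (-0.31 ± 0.17 SE, adjusted p = 0.878). The fold changes with log2 Myh7 as a covariate were -0.42 and -0.73. The start of its transcript, chr2:140170652-140170681 on the plus strand of GRCm38.p6 (RefSeq), is shown because it holds the NRF1 motif, in capitals, from base 17 to base 26 after the start. The 300-base window of Ndufaf5 holds no E-box, which was found in only 6 of the 74 matched members, and binding was not measured.
Ndufaf5: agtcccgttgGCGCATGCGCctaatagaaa

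The calls at rest moved with single samples. Without vehicle replicate 3 or 5, or knockout-labelled replicate 1 or 5, 0 members were called, of 367 to 442 genes in all. Without vehicle replicate 1 or 2, or knockout-labelled replicate 2, 1 was called, of 388 to 464 genes. Without knockout-labelled replicate 3 or 4, 2 were called, of 403 and 380 genes. Without vehicle replicate 4, 3 were called. Scaling by library size alone called 0 members (median 0.18), of 503 genes in all, and no low-count filter 2, of 428 genes. The call of Ndufaf5 at rest was lost in 9 of 10 fits with a sample left out (log2 fold change -0.48 to -0.36, adjusted p = 0.0397 to 0.15) and in 4 of 12 other settings, with no change of direction.

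After exercise, 7 members were lower in knockout-labelled muscle than in vehicle and 0 higher, 7 of 89 beside 6.42% of all genes (3.75% lower and 2.67% higher). The median log2 fold change of the members was -0.13, with 66 of 89 below 0, against 0.015 and 47.7% over all genes. The medians were -0.15 in complex I, -0.14 in III, -0.12 in IV, -0.13 in V, -0.08 in the assembly factors and 0.02 in II. Core subunits of complex I had a median of -0.01 and accessory subunits one of -0.19. Principal transcripts of the core subunits are 870.5 to 2625.5 nt long, while several of the accessory ones are under 700 nt. Genes outside the members with transcripts under 700 nt had a median of -0.20. The part of transcript length in the split was not tested.

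Beside Ndufaf5, 4 of the 7 were accessory subunits of complex I. By length, 5 of the 7 had a principal transcript under 700 nt. Ndufs6, a zinc-binding subunit, had 94.4, 90.6, 98.1, 67.7 and 72.8 CPM in vehicle and 53.8, 45.02, 65.8, 55.7 and 62.4 CPM in knockout-labelled muscle, without overlap (-0.58 ± 0.15 SE, adjusted p = 0.0216). Ndufa2 had 109.7, 106, 104, 80.4 and 85.7 CPM against 75.6, 66.8, 90.4, 56.1 and 73.8 CPM (-0.42 ± 0.12 SE, adjusted p = 0.0385). Ndufa13, also known as GRIM-19, had 188, 173, 163, 134 and 136 CPM against 109, 117, 130.4, 137 and 114 CPM (-0.38 ± 0.11 SE, adjusted p = 0.0395). Ndufb6 had 87.8, 76.7, 90.01, 68.7 and 69.1 CPM against 55.7, 47.9, 75.1, 41.7 and 63.2 CPM (-0.47 ± 0.14 SE, adjusted p = 0.0459). In Ndufa2, Ndufa13 and Ndufb6 the groups overlapped. Ndufb6 shares 257 bases of exon with Smim27 on the opposite strand, which stood at 40.9 CPM. The other two were Uqcr11, a small subunit of complex III, with 179.6, 147, 164, 102 and 109 CPM against 92.1, 70.5, 110.2, 46.8 and 93.8 CPM (-0.76 ± 0.22 SE, adjusted p = 0.042), and Atp5e, the epsilon subunit of F1. Atp5e had 326, 284, 319, 214 and 225 CPM against 182, 149, 226, 98.7 and 185 CPM (-0.70 ± 0.19 SE, adjusted p = 0.0326). In both of these the groups overlapped, and the lowest values came from knockout-labelled replicates 2 and 4, the libraries with 10 and 14 Myh7 counts. Vehicle replicates 4 and 5 were the lowest of their group in both. Over all members 5 of 89 did not overlap, beside 6.29% of all genes.

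**Figure D4:**
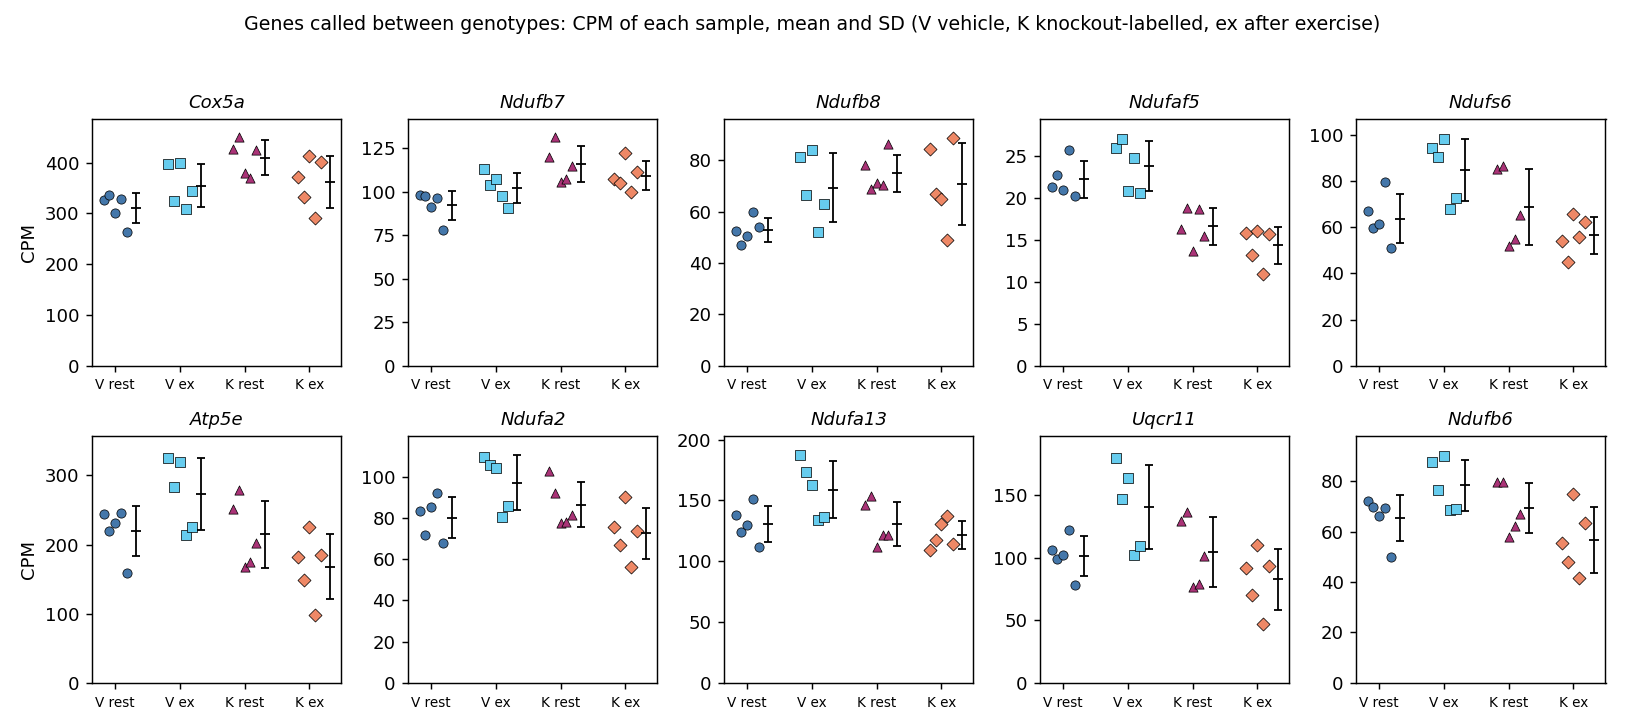
CPM of each sample (vertical, from 0) in the 4 groups for the 10 genes called between vehicle and knockout-labelled muscle, with the mean and SD of 5 samples beside the points. Ndufaf5 is lower in both knockout-labelled groups without overlap, at 10.9 to 18.8 CPM against 20.2 to 27.0 CPM in vehicle.

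The calls after exercise also moved with single samples. Without vehicle replicate 1, 2 or 3, or knockout-labelled replicate 1 or 2, 1 member was called, of 642 to 812 genes in all. Without knockout-labelled replicate 4, 2 were called, of 651 genes, and without knockout-labelled replicate 3, 11 were, of 841. Ndufaf5 passed after exercise without each of the 10 samples in turn. With log2 Myh7 as a covariate 15 members were called (14 lower, 1 higher), of 1333 genes called in all, beside 870 in the main fit. Without the 5 libraries under 100 Myh7 counts 0 members were called (median -0.07), of 304 genes. Library-size scaling gave 2, of 845 genes.

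Many members have short transcripts, and these moved with short transcripts of other genes. Of the 89, 34 had a principal transcript under 700 nt, and their mean log2 CPM correlated with that of 219 other genes of this length at r = 0.911 over 20 samples (Pearson, a description, since both share libraries). The mean over all members correlated with that of the 219 genes at r = 0.815. These 219 include 28 ribosomal protein genes and 14 genes with symbols starting Mrp, Timm or Tomm, of mitochondrial ribosomes and import, so the short-gene and ribosomal sets are not separate. After exercise the median log2 fold change between genotypes was -0.24 in the 34 short members and -0.06 in the 55 others, beside -0.20 in the 219 other short genes, of which 24 were called lower and 4 higher. Of the 7 members called there, 5 were among the 34 short members (14.7%) and 2 among the 55 others (3.64%). The share called was 12.8% in the 219 other short genes. With the mean of the other short genes as a covariate, 1 member was called, of 368 genes in all, and the median turned to 0.16. With the mean of 76 ribosomal protein genes as a covariate, 1 member was called, of 373 genes, and the median was 0.03. Both covariates were chosen after seeing the data, and the part of RNA or library quality in these differences was not tested. The median slope on Myh7 was 0.041 in short members, 0.040 in the others and 0.0046 in other short genes. With the short-gene covariate 24 members rose with Myh7, 23 of them among the 50, and 0 fell, of 2264 genes called in all.

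Exercise called 0 members in vehicle muscle, beside 0.804% of all genes (edgeR; DESeq2 and limma-voom also called 0). At an unadjusted p under 0.05 there were 12 members, beside 8.92% of all genes. The median log2 fold change was 0.16, with 85 of 89 above 0, against 50% of all genes. The 3 smallest p-values belonged to Ndufs5, a membrane-arm subunit of complex I (0.27 ± 0.091 SE, adjusted p = 0.239), Ndufb8 (0.39 ± 0.14 SE, adjusted p = 0.288) and Ndufs6 (0.41 ± 0.15 SE, adjusted p = 0.331). Ndufs5 had 89.2, 83.04, 81.4, 101 and 78.4 CPM at rest and 106, 110.5, 108, 101 and 99.2 CPM after exercise, and the groups overlapped. With log2 Myh7 as a covariate 2 members rose, beside 225 of all 13560 genes called, and the median of the members was 0.26. With the short-gene covariate that median was -0.04, and without vehicle replicate 5 at rest it was 0.09.

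In knockout-labelled muscle exercise called 0 members too, and 0% of all genes (edgeR; DESeq2 and limma-voom also 0 members). At an unadjusted p under 0.05 there were 2 members, beside 4.71% of all genes. The median was -0.14, with 86 of 89 below 0 (50% of all genes), and it was -0.0041 with log2 Myh7 as a covariate. The smallest p-values belonged to Ndufb11 (-0.30 ± 0.12 SE, adjusted p = 1), Ndufa2 (-0.25 ± 0.12 SE, adjusted p = 1) and Ndufb6 (-0.29 ± 0.14 SE, adjusted p = 1). Ndufb11 had 173, 198, 125, 144 and 148 CPM at rest and 139, 118, 149, 95.4 and 138 CPM after exercise, and the groups overlapped.

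The difference between both exercise responses was tested as an interaction. It called 0 members and 0% of all genes (edgeR; DESeq2 0 members and limma-voom 0), with 23 members at an unadjusted p under 0.05 beside 5.83% of all genes. The median difference was -0.32, with 88 of 89 below 0, against 0.0021 and 49.7% over all genes. The medians were -0.33 in complex I, -0.17 in II, -0.33 in III, -0.36 in IV, -0.35 in V and -0.13 in the assembly factors. The smallest p-values belonged to Ndufs6 (-0.69 ± 0.21 SE, adjusted p = 0.723), Ndufa2 (-0.53 ± 0.17 SE, adjusted p = 0.728) and Ndufb4 (-0.45 ± 0.15 SE, adjusted p = 0.74). The median was -0.24 in the 219 other short genes, and that of the members was 0.01 with the short-gene covariate, -0.15 without the 5 libraries under 100 Myh7 counts and -0.28 with log2 Myh7. All 5 comparisons share samples, so the medians are not independent of each other.

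**Figure D5:**
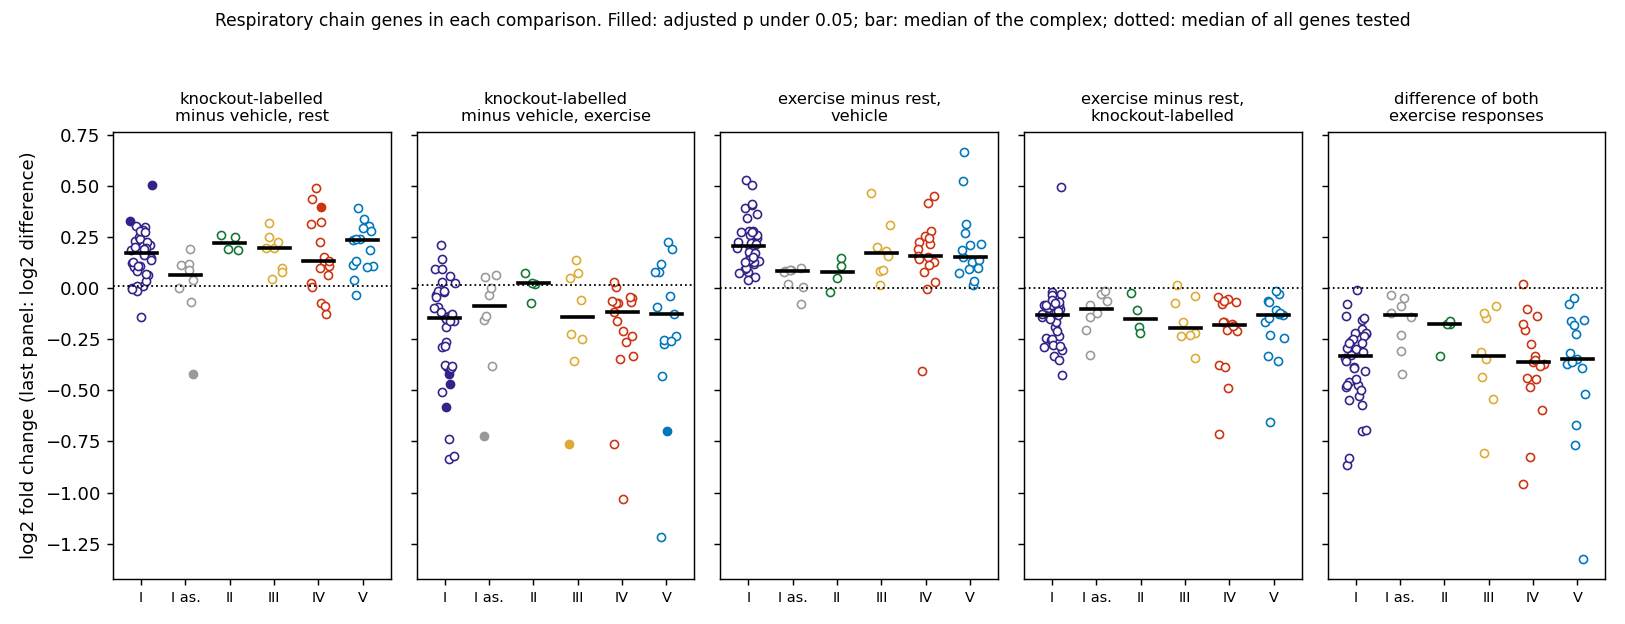
Log2 fold change of each gene (vertical) by complex (horizontal; I as., complex I assembly factors) in 4 comparisons and their interaction. Bars are medians of a complex, the dotted line is the median of all 13560 genes, and filled points have an adjusted p under 0.05; filled points appear in the genotype comparisons, 4 at rest and 7 after exercise, and in none of the other 3 panels. Atp5s is not drawn.

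Other genes of the pathway were counted beside the members. Of 15 genes of electron carriers and quinone synthesis, 11 rose with Myh7 and 0 fell, among them Etfa, which passes electrons from fat oxidation (0.12 ± 0.016 SE, adjusted p = 4.36e-05), and Coq8a (0.19 ± 0.026, adjusted p = 9.34e-05). Of 13 citrate cycle enzymes 9 rose and 0 fell. Of 13 regulators 6 rose and 0 fell, with the steepest called slope in the ERR gene Esrrb (0.38 ± 0.041, adjusted p = 5.88e-06). Of 43 other assembly factors tested 7 rose and 1 fell, and of 12 subunits encoded by mitochondrial DNA 1 rose, with all 12 slopes above 0 and a median of 0.040, the value of the members. At rest, 4 genes of these 5 lists were higher in knockout-labelled muscle and 0 lower (2 of 43 assembly factors, 1 of 13 citrate cycle enzymes and 1 of 15 electron carrier genes). Of all genes, 1.8% were called higher and 2.06% lower there. After exercise 4 genes of the lists were higher (1 in each list but the mitochondrial DNA subunits). Another 4 were lower, 2 of the 12 subunits encoded by mitochondrial DNA and 2 of the 43 assembly factors. Of all genes, 2.67% were called higher and 3.75% lower after exercise. The listed genes with the smallest p-values are named. At rest, knockout-labelled muscle was higher in Sucla2, a citrate cycle enzyme (0.56 ± 0.086, adjusted p = 0.000188), in Cycs, cytochrome c (0.50 ± 0.11, adjusted p = 0.0055), and in Taco1, an activator of Cox1 translation (0.45 ± 0.095, adjusted p = 0.00579). After exercise it was higher in Sucla2 (0.46 ± 0.086, adjusted p = 0.0013) and Coa5 (0.43 ± 0.095, adjusted p = 0.00612) and lower in mt-Co3, a complex IV subunit encoded by mitochondrial DNA (-1.42 ± 0.29, adjusted p = 0.00619). Exercise called 0 genes of these 5 lists in either genotype (edgeR). Ppargc1a, a coactivator of mitochondrial genes, had a log2 fold change of 1.33 ± 0.56 in vehicle (edgeR adjusted p = 0.461).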

How the data were processed

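Total RNA of 20 gastrocnemius samples was extracted with Trizol and a Qiagen kit and made into Illumina libraries, per the labels' protocols. The authors deposited 1 table of whole-number counts per gene symbol. Per the submitters' processing notes, Partek, STAR 2.7.8a and DESeq2 were used, with mm10 and GRCm39 named as builds without a role. The counting program, annotation and strandedness are not given in the sources used here. Members, gene lists, contrasts and alternatives were chosen with earlier results of these data known, and 4 alternatives were added after seeing the data (leaving out the 5 libraries under 100 Myh7 counts, Myh7 on a linear scale, and covariates from short-transcript and ribosomal protein genes).

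Genes passing filterByExpr of edgeR 4.0.16 (13560, holding 99.8% of counts) were fitted with TMM scaling and a robust quasi-likelihood model (R 4.3.3) over all 20 samples with 1 mean per group. The 5 contrasts, and a slope on log2 CPM of Myh7 (prior count 2) added to the group means, were adjusted by Benjamini-Hochberg over all genes, with a threshold of 0.05. Single values were compared by exact permutation. Alternatives used DESeq2 1.42.0, limma-voom 3.58.1, other scalings and filters, the replicate number as a block and each sample left out. The fit was tested on simulated counts. No label says that replicate numbers pair samples, and whether they do is not known. No 2 libraries of a group agreed within sampling noise. Totals of 8045154 to 11269812 counts limit Cox4i2, at 5 to 15 counts, most. SEs and p-values come from the spread between samples, and the labels name no molecular identifiers.

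Named genes were all called members of a contrast (or the 10 of smallest p; with none called, the 3 of smallest p), the 5 steepest, 3 most negative and 3 flattest slopes, the member of highest CPM per kb in each complex, isoform pairs, catalytic subunits, and up to 3 other pathway genes per contrast; 1 gene that the rule names is not reported here. Transcript lengths are of principal transcripts in GENCODE M21. Promoters are from RefSeq (GRCm38.p6), where 15 members had no match.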

Additional observations from a re-analysis of the deposited data

Results flagged for a closer look

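In each group of 5 the highest and lowest sample were compared with the nearest other by Dixon's rule at 95%, for the complex means, Myh7 and the genes called between genotypes. Chance flags about 1 in 20 groups. Of 72 groups looked at, 7 were picked out, all in vehicle at rest and all with replicate 5 lowest, so they concern 1 library. Its mean log2 CPM over all members was 6.37 (nearest other 6.78). It was 6.29 in complex I (6.66), 7.43 in complex III (7.88), 6.02 in complex IV (6.58) and 7.48 in complex V (7.98). Its Myh7 level was 2.96 log2 CPM (7.81), and its Ndufb6 level 49.9 CPM (66.1). Without this library the median of the members was 0.10 for knockout-labelled against vehicle at rest and 0.09 for exercise in vehicle, beside 0.16 for each with it.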

How the results depend on the processing

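Numbers in brackets are all genes called in the same fit. At rest, 4 members were called between genotypes (523). Library size only gave 0 (503), no low-count filter 2 (428) and the ribosomal protein covariate 2 (469). Fits with single samples left out gave 0 to 3, and those with 0 members called 367 to 442 genes in all. After exercise, 7 members were called (870). DESeq2 gave 11 (1138), library size only 2 (845) and log2 Myh7 as a covariate 15 (1333). The short-transcript covariate gave 1 (368) and the ribosomal protein covariate 1 (373). Without the 5 libraries under 100 Myh7 counts 0 members were called (304), and with single samples left out 1 to 11 (841 in the fit with 11). For exercise in vehicle, 0 members (109) became 2 (225) with log2 Myh7. On the slope, 50 members became 32 without group means (1831), 17 in vehicle samples only (913) and 24 with the short-transcript covariate (2264). Without the 5 libraries 2 were called (59), and with single samples left out 38 to 70. The lowest number came without vehicle replicate 3 after exercise and the highest without vehicle replicate 2 after exercise. In each of these fits 0 members fell. Some settings leave fewer samples or genes, and the cause of these changes was not tested. Exercise in knockout-labelled muscle and the interaction stayed at 0 under every setting run.

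With the replicate number as a block, 3 members were called at rest, 8 after exercise, 0 for exercise and the interaction, and 49 on the slope. The numbers of all genes called in the block fit are not given here, so these counts compare with the main fit only. Of 30 pairs of same-numbered samples 15 correlated above 0.1 (range -0.448 to 0.437). Differently numbered samples were not compared in this way, so these values cannot decide whether the numbers pair samples.

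Uncalled slopes near 0 changed sign. Ndufb4 was 0.016 in knockout-labelled samples only, 0.0087 with library size only, 0.0017 with the replicate block, 0.010 without the 2 samples farthest in Myh7 and -0.0089 to 0.014 with single samples left out. Atp5s was 0.0084, 0.0054 and 0.0063 in the first 3 of these settings. Ndufaf6 was 0.00077 with library size only and 0.0074 with the block. Atp5g2 was -0.0019 and Ndufaf5 -0.012 in vehicle samples only. Ndufaf5 was -0.000717 without group means and -0.0033 to 0.021 with single samples left out. Ndufaf7 was -0.0023 without the 2 samples farthest in Myh7 and -0.0035 to 0.010 with single samples left out. The difference in mean log2 Myh7 between genotypes ran from -0.013 to 1.92 at rest and from -2.28 to 0.78 after exercise with single samples left out, and that of exercise in knockout-labelled muscle from -4.97 to -2.64 (lowest, with an exact permutation p of 0.0317, without knockout-labelled replicate 5 after exercise). Of 1654 recomputed values of single named genes, 1464 kept direction and side of the threshold, 138 missed it, 34 newly passed and 18 changed sign.

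Limits are the 5 samples per group, the spread of Myh7 within groups, low counts of Cox4i2 and Ndufa4l2, and unknown strandedness at overlapping genes.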

Other observations

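The libraries also differed in transcripts of other fibre types and cells. Myh2, the myosin of fast oxidative fibres, ran from 260.3 to 4110 CPM in vehicle at rest, 43.01 to 4475 in vehicle after exercise, 1116 to 5102 in knockout-labelled muscle at rest and 86.9 to 4113 after exercise, so the 4 groups overlapped. The 9 markers of IIx and IIb fibres summed to 98037 to 182057 CPM over the 20 samples. Blood markers (5 genes) summed to 48.1 to 366 CPM, nerve markers (5) to 17.98 to 138 CPM, endothelial markers (4) to 80.1 to 156 CPM, fibroblast markers (4) to 181 to 435 CPM, macrophage markers (4) to 11.04 to 23.1 CPM, white fat markers (5) to 125 to 167 CPM and brown fat markers (2) to 0 to 1.79 CPM. Their part in the levels of respiratory chain transcripts was not tested.

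Ribosomal protein genes, which also have short transcripts, had a median log2 fold change of -0.22 between genotypes after exercise over 76 genes, of which 16 were called lower by edgeR.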
